A study of Mus musculus with 9 samples.

Results

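The genes of ER-associated degradation (ERAD) described here were Edem1, Edem2, Edem3, Os9, Syvn1, Sel1l, Herpud1, Derl1, Derl2 and Derl3, measured at 3 stages of B cell differentiation. They were chosen by name, and all 10 were found among the 29995 genes of the expression table without immunoglobulin (Ig) genes. RNA-seq libraries came from spleens of B6.Blimp1+/GFP mice, aged 12 weeks, that had been injected intraperitoneally with 50 µg NP-LPS, the hapten nitrophenyl on bacterial lipopolysaccharide, and harvested 4 days later. The mice carry a GFP reporter of Blimp1, the transcription factor encoded by Prdm1, on 1 allele, and no group without the reporter or without immunization was analysed here. The 3 groups had 3 libraries each, from 3 mice. Naïve B cells (IgD high, B220+, NP-) came from immunized mice as well. Activated B cells, the NP-specific B cells of the plots, were IgD-, B220+, NP+, and lacked both GFP and CD138. Plasma cells (PCs) also bound NP and were IgD-, GFP+ and CD138+, with B220 either present or absent. All groups were gated negative for CD4, CD8a, Ter-119 and F4-80.

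A cell that secretes antibody folds and assembles large amounts of Ig in the endoplasmic reticulum (ER), and ERAD disposes of the chains that fail. Mannosidase-like proteins of the EDEM family trim N-glycans of misfolded glycoproteins, and the lectin OS-9 reads the trimmed glycan. The client is handed to a membrane complex built around the ubiquitin ligase Hrd1 (gene Syvn1) and its partner SEL1L, with HERP (gene Herpud1) and the derlins, and is pulled into the cytosol by the ATPase p97 for destruction by the proteasome. Many of these genes are known targets of the unfolded protein response (UPR), whose transcription factors XBP1 and ATF6 act through short promoter elements.

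The largest contrast was between PCs and the other groups. With Ig genes left out, all 10 ERAD genes were higher in PCs than in naïve B cells and than in activated B cells, from 2.69-fold for Syvn1 to 116-fold for Derl3 against naïve B cells, where 11.4% and 9.93% of all tested genes were called higher in these comparisons. With Ig genes kept the count was 7 in each comparison (4.47% and 3.41% of all genes called higher), or 4 and 5 when TPM was taken as a share of all transcripts (3.03% and 2.6% of all genes called higher), and with that share Syvn1 lay below naïve B cells (-0.24), and Derl2 and Herpud1 were at -0.61 and -0.21 against activated B cells. Among activated B cells only Derl3 passed both thresholds (4.45-fold over naïve B cells), 1 of 10 where 8.13% of all tested genes were called higher. Edem1 stood at 2.05-fold there with an adjusted p-value above 0.05, and the remaining 8 genes lay within 2-fold of naïve B cells.

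The sorted groups carried the transcripts of their gates. Summed TPM, an abundance corrected for transcript length, of 5 tested PC marker genes (Sdc1, Prdm1, Xbp1, Tnfrsf17 and Irf4) was 142 to 167 in naïve libraries, 175 to 194 in activated B cell libraries and 4811 to 5939 in PC libraries, while that of 5 B cell genes was 7694 to 8046, 5773 to 6293 and 1492 to 1565. Xbp1 supplied most of the PC marker sum in both B cell groups. Sdc1 (4.33 to 8.48, then 0.0930 to 1.48) and Irf4 (22.8 to 28.5, then 7.12 to 14.0) lay lower in activated than in naïve libraries. Xbp1 and Tnfrsf17 lay higher there, and Prdm1 overlapped. Without Ig genes the libraries held 20189900 to 38602300 estimated reads, with PCs lowest (20189900 to 22137400). PC replicate 3 and activated B cell replicate 2 stood apart from their groups in lists of other cell types. PC replicate 3 had a summed TPM of 5254 over 7 hepatocyte genes (Alb 660 and Apoa1 798), against 64.0 and 65.0 in the other PC libraries and at most 6.30 in the other groups. In PC replicates 1 and 2 that sum was mostly Trf (37.6 and 42.3) and Apoa2 (25.2 and 21.6), while Alb was at 0.166 and 0.0810. Macrophage genes (4 in the table) summed to 93.4 in PC replicate 3 against 32.5 and 45.1 in the other PC libraries. They summed to 52.0 to 69.0 in activated B cells, with Cd68 supplying most of it, and to 5.47 to 6.49 in naïve B cells. Neutrophil genes (4) summed to 50.0 in activated B cell replicate 2, mostly S100a8 and S100a9 (24.7 and 23.9), against 1.75 and 0.495 in the other activated B cell libraries, to 33.5 in PC replicate 3 against 6.32 and 5.97 in the other PC libraries, and to at most 3.04 in naïve libraries. Activated B cell replicate 2 was also the lowest of its group for Derl2 and Herpud1, whose changes without it are given below. Erythroid genes (5) summed to 36.7 in PC replicate 3 against 16.8 and 6.20 in the other PC libraries and 15.0 to 29.7 in the B cell libraries. T cell genes summed to at most 7.42 in any library. Beyond the comparisons without these 2 libraries given below, the part of these transcripts in the results was not tested. In RNA from sorted populations, fewer cells with a transcript and less of it per cell cannot be told apart.

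All 10 genes were called higher in PCs, and their promoters were therefore examined. RefSeq promoter windows (build GRCm38.p6, 250 bases before to 50 after the annotated start) were matched by symbol for 9 of the 10 genes, all but Derl1, with 2 starts for Derl2. The windows were searched on both strands for the ER stress response element ERSE (CCAAT, 9 bases of any kind, CCACG), for ERSE-II (ATTGG, 1 base, CCACG) and for the UPR element UPRE (TGACGTGG). ERSE was found at Derl3 and at Syvn1, and ERSE-II at Herpud1, so 3 of 9 genes held one of these elements. Over all 32851 promoter windows of the same length, 0.119% held ERSE, 0.0365% ERSE-II and 0.676% UPRE, and 0.822% held any of the 3. Of 44 other ERAD genes with a matched window, 3 held one of them, in each case UPRE (Ube2j1, Vcp and Txndc11). UPRE was found at 0 of the 9 genes. The 250 bases before the start of these 3 genes are printed 5′ to 3′ on the gene's strand, because they hold the matches, with the fixed bases of each element in capitals. They are Derl3 at chr10:75893148-75893397 (+), Syvn1 at chr19:6046326-6046575 (+) and Herpud1 at chr8:94386179-94386428 (+).
Derl3: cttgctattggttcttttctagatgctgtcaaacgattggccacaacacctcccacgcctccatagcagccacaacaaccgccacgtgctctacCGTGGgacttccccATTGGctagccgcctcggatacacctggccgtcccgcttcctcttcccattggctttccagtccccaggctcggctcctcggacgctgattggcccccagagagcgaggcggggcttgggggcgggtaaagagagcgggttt
Syvn1: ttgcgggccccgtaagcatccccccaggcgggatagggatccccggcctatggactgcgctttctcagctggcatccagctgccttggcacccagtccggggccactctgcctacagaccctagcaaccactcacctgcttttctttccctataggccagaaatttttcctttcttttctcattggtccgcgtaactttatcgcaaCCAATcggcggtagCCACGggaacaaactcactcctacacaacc
Herpud1: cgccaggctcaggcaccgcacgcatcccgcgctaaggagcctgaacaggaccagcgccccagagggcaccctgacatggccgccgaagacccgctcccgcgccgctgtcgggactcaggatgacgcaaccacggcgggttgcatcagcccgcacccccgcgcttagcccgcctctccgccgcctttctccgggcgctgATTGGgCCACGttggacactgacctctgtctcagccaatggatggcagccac

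In Derl3 the element lies on the opposite strand, 156 to 138 bases before the start. At Syvn1 it lies 44 to 26 bases and at Herpud1 52 to 42 bases before the start, both on the gene's strand. The 2 genes with ERSE had the largest and the smallest change in PCs against naïve B cells. The shared part CCACG alone, which all 3 elements contain on one strand or the other, was found at all 9 genes and in 32.8% of all promoter windows. Edem1, Edem2, Edem3, Os9, Sel1l and Derl2 held none of the 3 elements in this window, which says only that these letters are not there.

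Values are next given by role, as TPM in replicates 1, 2 and 3 of each group from the table without Ig genes, followed by log2 changes ± SE and Benjamini-Hochberg adjusted p-values from limma. A gene was called where that adjusted p was below 0.05 and the change exceeded 2-fold.

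**Figure D1:**
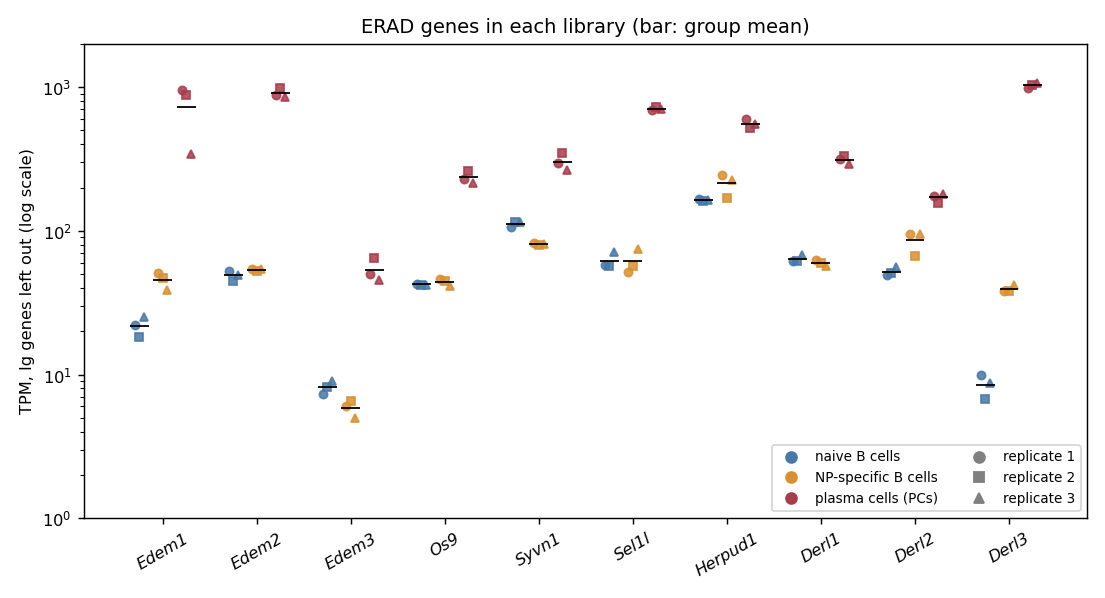
TPM of the 10 ERAD genes (log axis) in each of 9 libraries, coloured by group, with the marker shape giving the replicate and the bar the group mean. All 10 genes have their 3 PC libraries above the 6 others, and PC replicate 3 lies apart from the other PC libraries for Edem1 (345 against 953 and 878).

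The EDEM family acts early in the pathway, and its members changed by unequal amounts. Edem1 (chromosome 6, 108828641 to 108859356, + strand) had a TPM of 22.2, 18.3 and 25.1 in naïve B cells, 50.8, 46.9 and 38.7 in activated B cells and 953, 878 and 345 in PCs. The 3 groups did not overlap, but PC replicate 3 held less than the other PC libraries by more than 2-fold. Edem1 was higher in PCs by 4.89 ± 0.44 against naïve B cells (limma adjusted p = 3.5e-06) and by 3.86 ± 0.39 against activated B cells (adjusted p = 1.0e-05). Without PC replicate 3 these changes were 5.36 and 4.33. In activated B cells against naïve B cells Edem1 had a change of 1.04 ± 0.50 (adjusted p = 0.118), which was not called. The spread is shared by all groups in the fit, PCs included, and without PC replicate 3 the change was 1.04 ± 0.16 (adjusted p = 0.000711). It was also called with unweighted log2 values, with estimated counts, with the replicate block and with only the 6 libraries compared. Over all alternatives its adjusted p ran from 0.000711 to 0.290.

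How unusual the low Edem1 value of PC replicate 3 was can be read against other genes. The ratio of its TPM to the mean of the other PC libraries was 0.377, and 35 of 6272 genes with a mean PC TPM of at least 10 had a ratio as low. The median ratio of these genes was 0.927. Ratios of the other 9 ERAD genes ran from 0.791 (Edem3) to 1.1 (Derl2), and that of Xbp1 was 0.844. Txndc11, which encodes a thioredoxin-domain protein known to bind EDEM proteins, had 1340, 1398 and 730 in the PC libraries, a ratio of 0.533, named here after its values were seen. Of the 6272 genes, 159 had a ratio as low as that of Txndc11, and the ratio of Edem2 was 0.907. Whether the low values of Edem1 and Txndc11 are linked was not tested.

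Edem2 (chromosome 2, 155701677 to 155729475, - strand), whose product starts mannose trimming on ERAD clients, had 52.9, 44.8 and 49.4 in naïve B cells, 54.4, 52.5 and 54.3 in activated B cells and 889, 981 and 848 in PCs. Naïve and activated B cells overlapped, and PCs stood far above both. The rise in PCs was 4.19 ± 0.10 against naïve B cells (adjusted p = 2.4e-10) and 4.06 ± 0.10 against activated B cells (adjusted p = 3.5e-10), with a change of 0.13 ± 0.12 between the latter groups (adjusted p = 0.418). Edem3 (chromosome 1, 151755371 to 151822051, + strand) was the scarcest of the family, at 7.35, 8.199 and 9.04, then 5.997, 6.59 and 4.98, then 50.4, 64.6 and 45.5. All 3 activated B cell libraries lay below the naïve libraries, but the change of -0.46 ± 0.24 was not called (adjusted p = 0.143). In PCs Edem3 was higher by 2.62 ± 0.19 and 3.08 ± 0.20 (adjusted p = 6.7e-07 and 4.0e-07).

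These changes altered the make-up of the family. Summed TPM of Edem1, Edem2 and Edem3 was 79.1 ± 6.80 (SD, n = 3) in naïve B cells, 105 ± 6.69 in activated B cells and 1685 ± 386 in PCs. Edem2 supplied most of the sum in naïve B cells (59.2 to 64.2%) and Edem1 25.6 to 30.02%. In activated B cells Edem1 supplied 39.5 to 45.7%, above every naïve library. In PCs its share was 50.3%, 45.6% and 27.9% in replicates 1 to 3, so PC replicate 3 lay within the naïve range. The share of Edem3 was 8.91 to 11.5% in naïve B cells, 5.09 to 6.22% in activated B cells and 2.67 to 3.67% in PCs, with no overlap between groups.

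**Figure D2:**
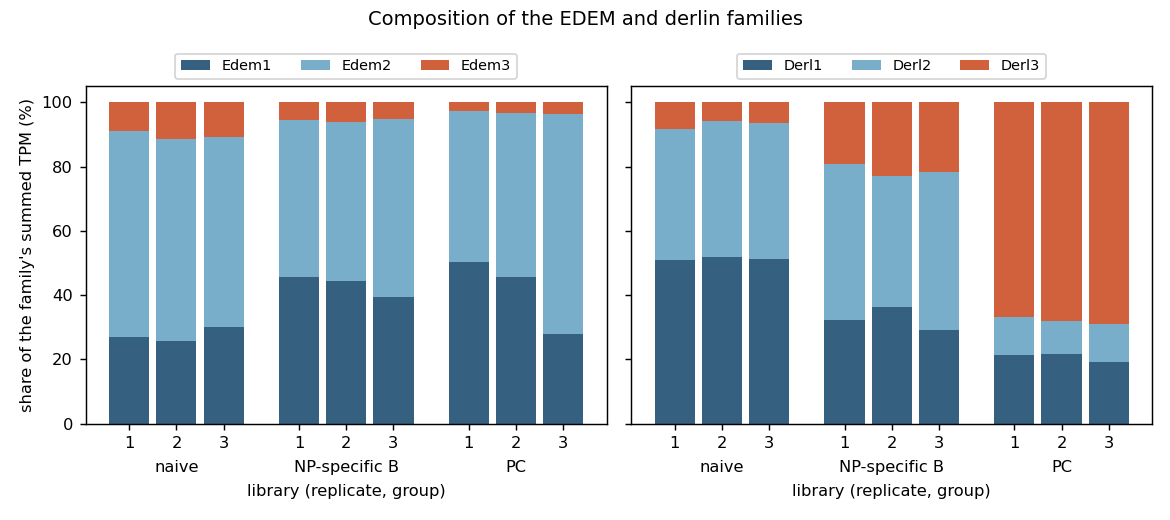
Share of the family's summed TPM (%) taken by each EDEM gene (left) and each derlin gene (right), 1 stacked bar per library, grouped as naïve B cells, NP-specific B cells and PCs. Derl3 takes 5.70 to 8.29% of derlin TPM in naïve libraries, 19.3 to 23.0% in NP-specific B cell libraries and 67.0 to 69.2% in PC libraries.

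Os9 (chromosome 10, 127095650 to 127121131, - strand), the ER lectin, changed with the PC stage alone. Its TPM was 42.9, 42.2 and 42.0 in naïve B cells, 46.2, 44.8 and 41.2 in activated B cells and 231, 261 and 215 in PCs. The first 2 groups overlapped. Os9 was higher in PCs by 2.45 ± 0.11 and 2.41 ± 0.11 (limma adjusted p = 1.6e-08 and 2.2e-08), and its change between NP-specific and naïve B cells was 0.05 ± 0.12 (adjusted p = 0.792).

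The ligase and its scaffold, which work as partners, did not keep a fixed ratio of transcripts. Syvn1 (chromosome 19, 6046576 to 6053712, + strand) had a TPM of 106, 114 and 115 in naïve B cells, 82.9, 80.4 and 80.9 in activated B cells and 296, 349 and 267 in PCs. Every activated B cell library was below every naïve library, by -0.46 ± 0.12 (limma adjusted p = 0.0109), which is under 2-fold and so not called. In PCs Syvn1 rose by 1.43 ± 0.11 against naïve B cells (adjusted p = 9.9e-07), the smallest rise of the 10 genes, and by 1.89 ± 0.11 against activated B cells (adjusted p = 1.9e-07). Sel1l (chromosome 12, 91806043 to 91849157, - strand) had 58.0, 57.2 and 71.3, then 52.1, 56.7 and 75.3, then 695, 734 and 702. Naïve and activated B cells overlapped (-0.04 ± 0.15, adjusted p = 0.853). The rise in PCs was 3.50 ± 0.13 and 3.54 ± 0.13 (adjusted p = 3.7e-09 and 4.3e-09). Sel1l TPM per Syvn1 TPM was 0.5001 to 0.622 in naïve libraries, 0.628 to 0.930 in activated B cell libraries and 2.11 to 2.63 in PC libraries. The scarcer transcript of the pair was thus Sel1l in the 6 B cell libraries and Syvn1 in the 3 PC libraries. These symbol-level values include 91 of 4859 exonic bases of Syvn1 that overlap Mrpl49 on the opposite strand, a gene with a TPM of at most 44.9 in these libraries.

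Herpud1 (chromosome 8, 94386438 to 94395377, + strand), whose product ties the ligase to its partners, was the most abundant of the 10 in both B cell groups. It had 166, 160.2 and 165 in naïve B cells, 246, 169 and 226 in activated B cells and 597, 523 and 555 in PCs, with no overlap between groups. activated B cell replicate 2 lay close to the naïve libraries. The change of 0.36 ± 0.13 in activated B cells had an adjusted p-value of 0.0496 and was under 2-fold. Without that replicate it was 0.52 ± 0.09 (adjusted p = 0.00232). Under the alternatives tried its adjusted p ran from 0.00232 to 0.342, and the change stayed under 2-fold. In PCs Herpud1 rose by 1.76 ± 0.13 and 1.40 ± 0.12 (adjusted p = 6.2e-07 and 4.0e-06).

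The derlins, membrane proteins of the exit channel, took 3 different courses. Derl1 (chromosome 15, 57869502 to 57892448, - strand) had a TPM of 61.3, 61.7 and 68.2 in naïve B cells, 63.1, 59.7 and 56.5 in activated B cells and 316, 332 and 292 in PCs. It overlapped between the B cell groups (-0.10 ± 0.11, limma adjusted p = 0.486) and rose in PCs by 2.28 ± 0.10 and 2.38 ± 0.10 (adjusted p = 1.1e-08 and 1.1e-08). Derl2 (chromosome 11, 71007164 to 71019841, - strand) had 49.0, 50.6 and 56.2, then 95.1, 67.3 and 95.6, then 174, 157 and 182. Its libraries did not overlap between any groups. The change in activated B cells was 0.70 ± 0.15 (adjusted p = 0.00426), under 2-fold, and 0.86 ± 0.12 without activated B cell replicate 2 (adjusted p = 0.000402). PCs were higher than naïve B cells by 1.70 ± 0.14 (adjusted p = 2.2e-06) and than activated B cells by 1.00 ± 0.14 (adjusted p = 9.3e-05), a fold of 2.005 that barely passed. Leaving out activated B cell replicate 2, PC replicate 1 or PC replicate 3 gave 0.84, 0.99 and 0.96, and log2(TPM + 1) without weights gave 0.997, each under 2-fold. With Ig genes kept the direction turned, to -0.20, or to -0.61 (adjusted p = 0.00383) with TPM as a share of all transcripts. Derl2 shares 231 of 8049 exonic bases with Mis12 on the opposite strand (TPM at most 24.8).

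Derl3 (chromosome 10, 75893413 to 75895941, + strand), a derlin known from secretory tissues, was the gene with the widest range. It had a TPM of 9.97, 6.78 and 8.68 in naïve B cells, 37.9, 37.9 and 42.1 in activated B cells and 994, 1038 and 1062 in PCs. The naïve values rest on 295, 211 and 231 estimated reads, the fewest behind any of the 10 genes. The activated B cell libraries agreed within a narrow range, and no groups overlapped. Derl3 rose by 2.15 ± 0.16 in activated B cells (limma adjusted p = 5.3e-06). In PCs the rise was 6.85 ± 0.14 against naïve B cells (adjusted p = 1.0e-10), with 9 tested genes rising more, and 4.70 ± 0.10 against activated B cells (adjusted p = 1.7e-10). Summed derlin TPM was 124 ± 7.77 (SD, n = 3), 185 ± 17.5 and 1516 ± 28.0 in the 3 groups. Derl1 was the major derlin in naïve B cells, at 51.0 to 51.8% of the sum, and Derl2 in activated B cells, at 40.8 to 49.2%. Derl3 was the major derlin in PCs, at 67.0 to 69.2%, with Derl2 at 10.3 to 11.8%. Whether Derl3 proteins follow these transcripts was not measured.

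**Figure D3:**
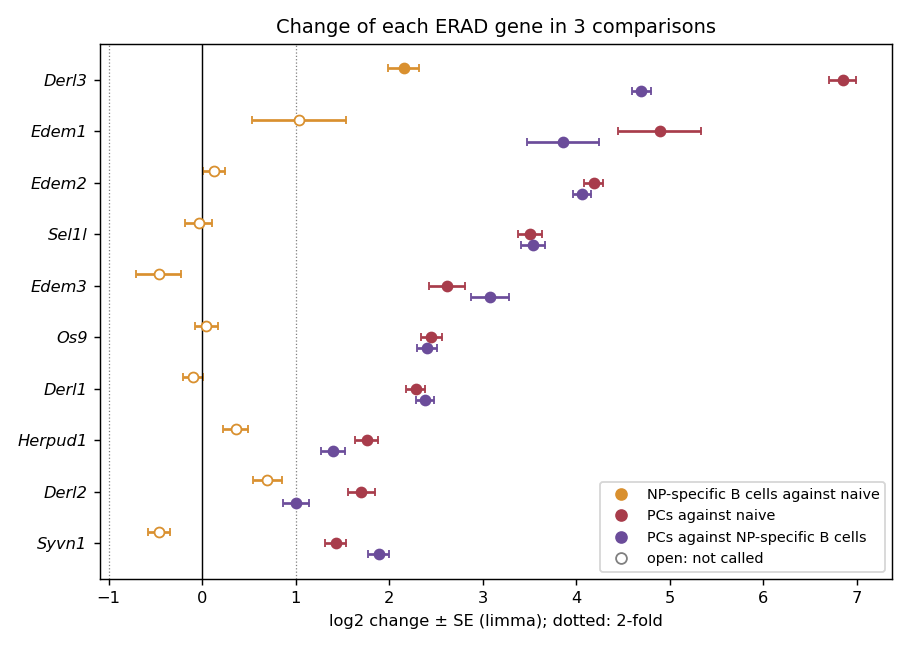
Log2 change ± SE (limma, 9 libraries in 1 fit) of each ERAD gene in 3 comparisons, ordered by the change in PCs against naïve B cells, with filled points for called genes and dotted lines at 2-fold. Derl3 is the only filled point of the comparison between NP-specific and naïve B cells, and all points of the PC comparisons are filled.

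Counted over the list, 1 of 10 ERAD genes was called higher (Derl3) and 0 lower in activated B cells against naïve B cells, where 8.13% of 12892 tested genes were called higher and 10.4% lower. The count of 1 of 10 is near that background. At an unadjusted limma p under 0.05 Syvn1 was the 1 gene lower, beside 3769 of the 12892 tested genes, and limma without voom weights on the authors' log2 values also called 0 lower. The median log2 change was 0.09 for the 10 genes and -0.16 for all tested genes. By libraries alone, 4 genes (Derl3, Edem1, Derl2 and Herpud1) had all activated B cell libraries above all naïve libraries and 2 (Syvn1 and Edem3) all below, against 23.6% and 32.4% of tested genes. In PCs against naïve B cells 10 of 10 were called higher, against 11.4% of tested genes higher and 26.3% lower, and the medians were 2.53 and -0.47. In PCs against activated B cells 10 of 10 were called higher, against 9.93% higher and 22.3% lower, with medians of 2.74 and -0.30. All 10 genes had the PC libraries above both B cell groups, as did 21% of tested genes against naïve and 17.3% against activated B cells. Both PC comparisons use the same PC libraries, and both comparisons with naïve B cells the same naïve libraries.

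The order of the genes by TPM, a level per transcript length, was rearranged between groups. In naïve B cells it ran Herpud1 (163.7 ± 3.07, SD, n = 3), Syvn1 (111.6 ± 5.08), Derl1 (63.7 ± 3.88), Sel1l (62.2 ± 7.88), Derl2 (51.9 ± 3.78), Edem2 (49.1 ± 4.09), Os9 (42.4 ± 0.464), Edem1 (21.8 ± 3.42), Derl3 (8.48 ± 1.60) and Edem3 (8.196 ± 0.843). Derl1 and Sel1l, Derl2 and Edem2, and Derl3 and Edem3 overlapped there. In activated B cells Herpud1 (213.7 ± 39.9) led and Edem3 (5.86 ± 0.814) was last, and Derl3 (39.3 ± 2.41) had come up to Edem1 (45.5 ± 6.21) and Os9 (44.0 ± 2.59), with Derl3 overlapping Os9 and Os9 overlapping Edem1. In PCs the order was Derl3 (1031 ± 34.9), Edem2 (906 ± 68.0), Edem1 (725 ± 331), Sel1l (710.3 ± 21.0), Herpud1 (558 ± 37.1), Derl1 (313 ± 20.2), Syvn1 (303.8 ± 41.6), Os9 (236 ± 23.6), Derl2 (170.8 ± 12.8) and Edem3 (53.5 ± 9.90). Edem1, which spanned 345 to 953, overlapped Edem2, Sel1l, Herpud1 and Syvn1, so its place in the order is unsettled, and Derl1 overlapped Syvn1. By mean TPM among all 29995 listed genes, Derl3 stood at rank 7716 in naïve B cells, 3534 in activated B cells and 159 in PCs. Together the 10 genes held 0.0597 to 0.0645% of table TPM in naïve libraries, 0.0655 to 0.0773% in activated B cell libraries and 0.474 to 0.560% in PC libraries.

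Across the 9 libraries, log2(TPM + 0.5) was compared between genes as a description, since the 3 groups set most of any correlation. The gene outside the list most like Derl3 was Prdx4, an ER peroxiredoxin (Pearson r = 0.999), with mean TPM of 32.2, 96.7 and 1069 in naïve B cells, activated B cells and PCs. Ebp, a sterol isomerase, followed (r = 0.998; 58.7, 84.0 and 225), and Ssr2, a subunit of the translocon-associated complex (r = 0.996; 86.0, 182 and 1721). Such values were common, with 405 genes above 0.95. Syvn1, the gene of smallest change in PCs against naïve B cells, was most like Ubac2, another ERAD membrane protein (r = 0.995; 67.6, 52.7 and 125.7), Epcam (0.995; 3.44, 0.814 and 62.3) and Leprotl1 (0.994; 6.44, 4.95 and 16.9), and 337 genes were above 0.95. Ubac2, Epcam and Leprotl1 had a lower mean in activated than in naïve B cells, as Syvn1 did. Within the list the lowest correlation was between Syvn1 and Derl2 (r = 0.764).

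A wider list of 54 other ERAD genes gave the surroundings, with 53 in the table and 50 tested. In activated B cells against naïve B cells 2 were called higher and 0 lower, under the 8.13% and 10.4% of all tested genes. These were Ube2j2, a ubiquitin-conjugating enzyme of the ER membrane, at 55.6, 39.0 and 56.3 in naïve B cells and 160.0, 107.8 and 142 in activated B cells (log2 change 1.42 ± 0.19, limma adjusted p = 0.000186), and Sdf2l1, an ER chaperone cofactor, at 71.7, 80.9 and 86.7 against 185, 185 and 255 (1.36 ± 0.14, adjusted p = 3.9e-05). Neither gene overlapped between these groups. At an unadjusted limma p under 0.05, 9 of the 50 were lower, as were 3769 of all 12892 tested genes. The median was 0.09, as against -0.16 over all tested genes.

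In PCs the wider list went both ways. Against naïve B cells 15 were called higher and 4 lower, and 31 were not called (median 0.17), beside 11.4% of all tested genes higher and 26.3% lower. With Ig genes kept 9 were higher and 24 lower (all genes 4.47% and 64.5%), or 6 and 31 with the fixed total described below (all genes 3.03% and 77.9%). All 6 genes listed as lumenal factors (a lectin, a mannosidase, reductases and chaperone cofactors) were higher, led by Sdf2l1 (4.84 ± 0.13), Txndc11 (3.92 ± 0.25) and Dnajb9 (3.403 ± 0.16), an ER co-chaperone. Sdf2l1 reached 2359, 2189 and 2365 in the PC libraries. Of 8 tested genes of p97 and its partners 4 were higher, among them Vcp itself, which encodes p97, at 156, 152 and 169 in naïve B cells and 591, 587 and 484 in PCs (1.79 ± 0.10, adjusted p = 1.3e-07), named after its values were seen. The other 3 were Selk, Vimp and Ubxn4, with changes of 2.80, 2.85 and 2.42, and these genes and the ligases below were likewise named after their values were seen. Of 9 further ubiquitin ligases of the ER 2 were higher, Rnf5 (1.40) and Rnf185 (1.29), and of 5 genes of ubiquitin conjugation 2 were higher, Ube2j1 (3.403) and Aup1 (1.27). Of 8 membrane scaffold genes 0 were higher and 2 lower, and of 14 tested genes of cytosolic handling 1 was higher and 2 lower, shares near or under those of all tested genes. Tmub1, a membrane ubiquitin-like protein, changed most in that direction, from 48.9, 47.2 and 43.0 in naïve B cells to 5.59, 6.09 and 3.47 in PCs (-3.12 ± 0.25, adjusted p = 1.4e-06). The deubiquitinase gene Usp25 (-2.73 ± 0.54) and Ubqln1, a proteasome shuttle factor (-1.76 ± 0.36), followed, and Erlin1 (-1.13), named because the count is 4, completed it.

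Against activated B cells 15 of the 50 were higher in PCs and 6 lower (median 0.24), beside 9.93% and 22.3% of all tested genes, and with Ig genes kept 6 were higher and 22 lower (all genes 3.41% and 59.7%), or 4 and 29 with the fixed total (all genes 2.6% and 72.3%). Txndc11 (3.86 ± 0.25), Dnajb9 (3.603 ± 0.17) and Sdf2l1 (3.48 ± 0.12) rose most, and Usp25 (-3.39 ± 0.53), Tmub1 (-2.62 ± 0.25) and Ubqln1 (-2.57 ± 0.34) fell most. The related conjugating enzymes Ube2j1 and Ube2j2 parted here. Ube2j1 had 87.4, 55.0 and 62.1 in activated B cells and 411, 447 and 349 in PCs (2.57 ± 0.16, adjusted p = 2.3e-07), while Ube2j2 had 38.9, 39.0 and 29.8 in PCs, below its activated B cell libraries (-1.90 ± 0.19, adjusted p = 1.2e-05). Ube2j1 was named, and set beside Ube2j2, after the values were seen.

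**Figure D4:**
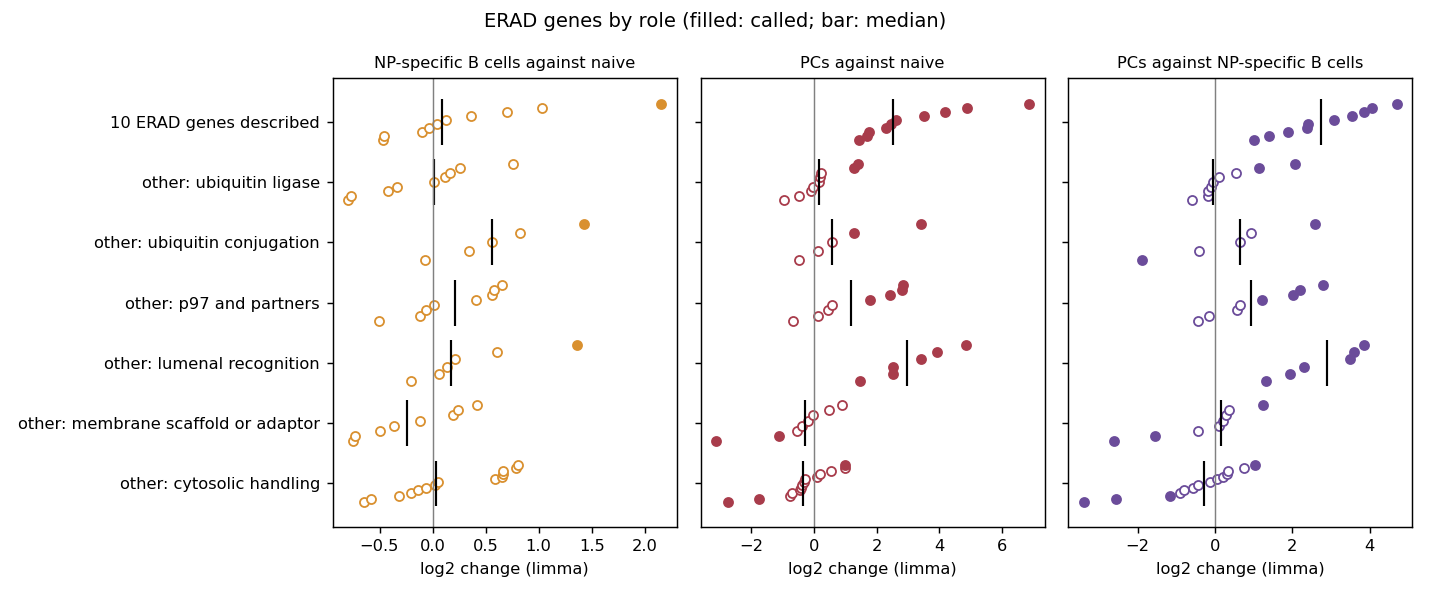
Log2 change (limma) of the 10 ERAD genes and of 50 other tested ERAD genes, 1 point per gene, by role and comparison, with filled points for called genes and bars at medians. In both PC comparisons all 6 genes of the lumenal row (lectin, mannosidase or lumenal reductase) are filled and to the right of 0, while the ligase, scaffold and cytosolic rows spread around 0.

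The table used above leaves out Ig genes, and this choice matters for PCs, because leaving them out multiplied the TPM of the remaining genes by 3.33 to 3.597 in PC libraries, 1.11 to 1.13 in activated B cell libraries and 1.07 in naïve libraries. In the full table, where a value is a share of all transcripts, Derl3 had a mean TPM of 7.94 in naïve B cells, 35.2 in activated B cells and 301.3 in PCs, and Edem2 had 45.9, 48.1 and 264. The 3 PC libraries remained above naïve B cells for Edem1, Edem2, Edem3, Os9, Sel1l, Derl1 and Derl3. Syvn1 had 99.0, 107 and 107 in naïve B cells and 88.3, 96.97 and 80.0 in PCs, so all PC libraries were lower. Herpud1 (155, 149.8 and 155 against 178, 145 and 166) and Derl2 (45.9, 47.3 and 52.6 against 51.9, 43.6 and 54.6) overlapped. Against activated B cells the PC libraries were above for the genes that stood above naïve B cells and for Syvn1. They overlapped for Herpud1 and were below for Derl2 (84.1, 60.4 and 86.4 against 51.9, 43.6 and 54.6). The share of all genes with PC libraries above either B cell group was not counted in the full table. On these deposited values, limma with a fixed total, chosen after seeing the data, called 4 genes higher against naïve B cells (Derl3, Edem1, Edem2 and Sel1l, by 5.18, 3.22, 2.51 and 1.83) and 5 against activated B cells (the same genes and Edem3). Of all 12324 genes tested in the full table, 3.03% were called higher and 77.9% lower against naïve B cells in that fit, and 2.6% and 72.3% against activated B cells. Os9 and Derl1 were at 0.78 and 0.61 against naïve B cells, under 2-fold. Syvn1 was at -0.24 ± 0.09 (adjusted p = 0.0259), Herpud1 at 0.09 ± 0.14 (adjusted p = 0.554) and Derl2 at 0.04 ± 0.16 (adjusted p = 0.833). Against activated B cells Derl2 was at -0.61 ± 0.15 (adjusted p = 0.00383) and Herpud1 at -0.21 ± 0.14 (adjusted p = 0.163). The listed genes of the full table summed to a TPM of 671550 to 699885 in PC libraries and 902902 to 937784 in the others, and dividing by those sums instead gave 7 genes higher in each PC comparison, where 4.47% and 3.41% of all genes were called higher and 64.5% and 59.7% lower. The median of all genes moved by -1.53 and -1.47 with the fixed total and by -1.07 and -1.06 with the sums.

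**Figure D5:**
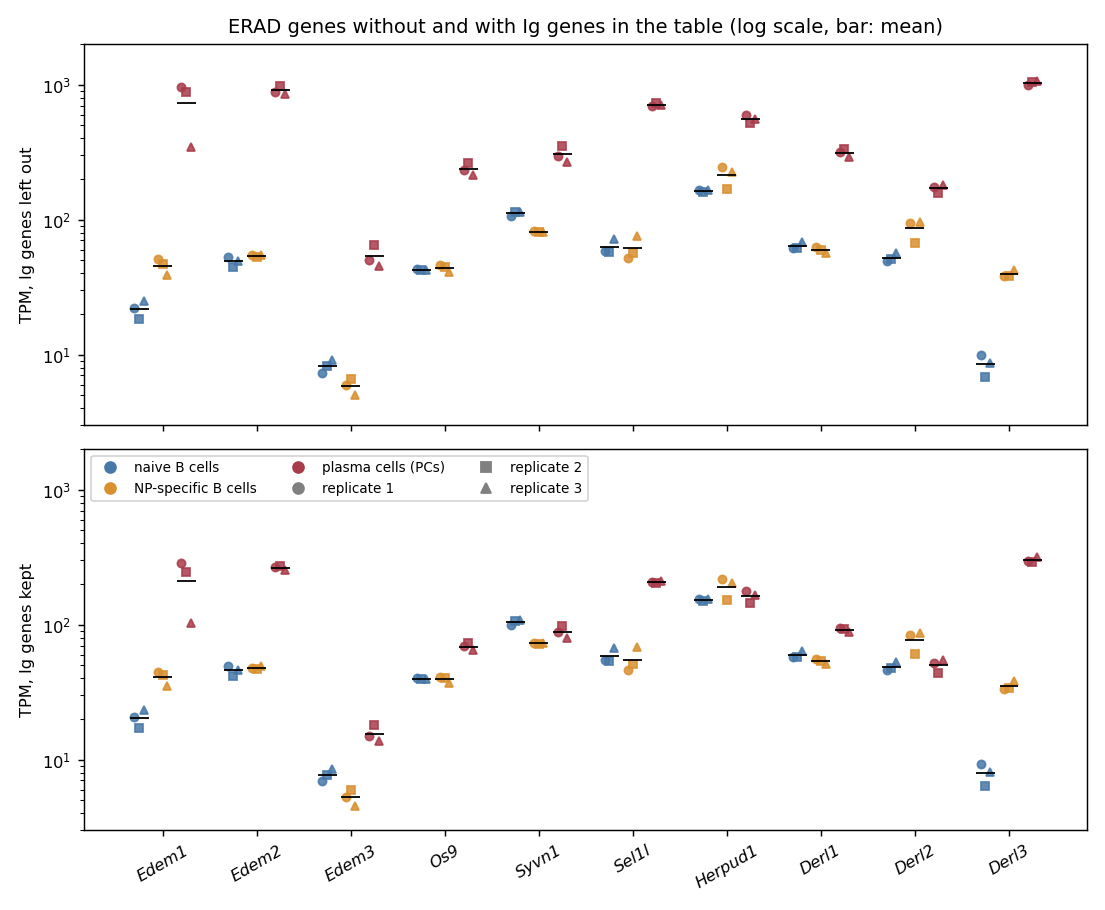
TPM (log axis) of the 10 ERAD genes per library in the table without Ig genes (top) and in the full table (bottom), with groups by colour, replicates by shape and bars at group means. With Ig genes kept, Syvn1, Herpud1 and Derl2 no longer stand above naïve B cells in all PC libraries, while Derl3, Edem2, Sel1l and Edem1 do.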

How the data were processed

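RNA-seq of 9 sorted-cell libraries was used. The authors pseudoaligned reads with kallisto and summed transcripts by gene symbol. Genome build mm10 and the tools kallisto and limma are named in the submitters' processing notes, and the transcript annotation is not given in the sources used here. The deposited TPM values are corrected for transcript length and scaled per library, although the genes listed in the full table sum to less than that scale. The deposited log2 values are the authors' voom values, log2 counts per library size with an offset of 0.5, and estimated reads were recovered from them, since genes at a TPM of 0 correspond to 0.5 counts (recovered reads summed to 0.999587 to 0.999832 of the library size). Both exist with and without Ig genes. Reads carry no molecular identifiers, so depth covers counting error only.

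The study names voom and limma for its TPM values. Here TPM without Ig genes, a choice of this work, was passed to voom and fitted with limma (3.58.1, R 4.3.3) over all 9 libraries, with a mean per group and without the replicate block. Testing was limited to the 12892 genes reaching TPM 1 in 3 or more libraries, over which p-values were adjusted. Voom adds 0.5 to TPM, which understates changes of low genes. The fit was tested on simulated data. P-values measure the spread between 3 libraries a group, each from a mouse per the series text. No library duplicated another (pairwise r of log2 TPM within groups at most 0.982). Named genes were the 10 ERAD genes, the 3 largest called rises and falls among other ERAD genes per comparison, and the 3 genes most correlated with the members of largest and smallest change in PCs against naïve B cells. Vcp, Selk, Vimp, Ubxn4, Rnf5, Rnf185, Ube2j1, Aup1 and Erlin1 lay outside these rules and were named after their values were seen. The members and lists were chosen with earlier results of these data known. Coordinates are from GENCODE M21 (GRCm38) and promoters from RefSeq. The SMARTer v4 and Nextera XT kits named in the labels do not mark strand, so overlapping genes can share reads. The series text names 3′ polyA capture, and levels compared between genes rest on TPM's length correction. Alternatives covered scaling, filters, pseudocounts, value type, Ig genes, the replicate block, the samples fitted, the fold threshold and each library left out.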

Additional observations from a re-analysis of the deposited data

How the results depend on the processing

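The 10 ERAD genes called higher in PCs numbered 7 to 10 in both PC comparisons under the 21 alternatives planned, with 7 when Ig genes were kept and values divided by the sum of listed genes. Under an alternative chosen after seeing the data, Ig genes kept with a fixed total, they numbered 4 against naïve B cells and 5 against activated B cells. None of these alternatives called an ERAD gene of the 10 lower (0 by limma, 0 at an unadjusted p under 0.05 in the PC comparisons with Ig genes left out). With the fixed total Syvn1 in PCs against naïve B cells turned to -0.24, Derl2 and Herpud1 in PCs against activated B cells to -0.61 and -0.21, and Os9 in activated against naïve B cells to -0.0111. In activated B cells against naïve B cells the count of 1 became 2 with log2(TPM + 0.1) or log2(TPM + 1) and no weights, with estimated counts, with the authors' log2 values, with the replicate block, with only the 6 libraries compared and with a log2 change of at least 0.5. Leaving out each library in turn gave 1 to 2. The second gene was Edem1 in each case but the last, where it was Derl2, and the adjusted p of Edem1 ranged from 0.000711 to 0.290. Calls over all tested genes were counted for the main fit, median-of-ratios scaling, quantile normalization and the fits with Ig genes kept. They were not counted for the other alternatives, which include every setting that gave 2 here. Small changes in activated B cells against naïve B cells turned sign: Os9 to -0.01 (-0.0055) with quantile normalization, Sel1l to 0.0687 and Derl1 to 0.0106 with median-of-ratios scaling, and Sel1l to 0.06, 0.0699 and 0.01 (0.0082) when naïve replicate 3 or activated B cell replicate 1 or 2 was left out, within a range of -0.19 to 0.0699 over single libraries left out. Derl2 in PCs against activated B cells turned to -0.20 with Ig genes kept. The cause was not tested.

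The labels do not say whether equal replicate numbers mark the same mouse. Deviations from group means correlated at -0.0749 to 0.0675 for equal numbers and -0.0865 to 0.0724 for different ones. Such values cannot show whether libraries of equal number share a mouse. With the replicate block the count in activated B cells was 2, with Edem1 called (1.06, limma adjusted p = 0.0244), and Derl2 in PCs against activated B cells was just under 2-fold (1.00). Median-of-ratios scaling moved the median of all genes by 0.11, 0.49 and 0.38 in the 3 comparisons and their calls to 1258 higher and 1022 lower, 2349 and 1814, and 2023 and 1788. Quantile normalization gave 1157 and 976, 2063 and 2047, and 1795 and 1843. The called ERAD genes numbered 1, 10 and 10 under both. Of the other ERAD genes, 9 were higher and 24 lower against naïve B cells, and 6 and 22 against activated B cells, in PCs with Ig genes kept (6 and 31, and 4 and 29, with the fixed total). Of all genes 4.47% and 3.41% were called higher and 64.5% and 59.7% lower in these 2 comparisons, or 3.03% and 2.6% higher and 77.9% and 72.3% lower with the fixed total. Among the other ERAD genes, a log2 threshold of 0.5 gave 10 higher and 6 lower in activated B cells against naïve B cells. In PCs against naïve B cells it gave 20 higher and 9 lower. The share of all tested genes at that threshold was not counted. Leaving out activated B cell replicate 2 gave 4 other ERAD genes higher in activated B cells, and the share of all tested genes in that fit was not counted either. Depth limited Derl3 most, with at least 211 estimated reads.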
